A study of Homo sapiens and Mus musculus with 47 samples.

Results

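Chrom-seq with the TAF3 reader was examined in NIH3T3 cells, a mouse embryonic fibroblast line, using the 6 libraries of that line among the 47 samples of the series. The members were all libraries titled as NIH3T3 Chrom-seq, 3 with the TAF3 reader and 3 controls. Cells of both groups expressed the constructs for 48 h, took up biotin-aniline at 500 µM for 30 min and received H2O2 at 1 mM for 1 min. In the TAF3 group the PHD finger of TAF3 was joined to an array of GCN4 peptide tags (SunTag), which recruits a single-chain antibody fragment that carries the peroxidase APEX2. The control group carried the same tag array without a reader and the same fragment with APEX2. Both constructs were introduced by transient transfection, with a CMV promoter driving the tag array. Labelled RNA was captured on streptavidin and sequenced after poly(A) selection. Nothing in the labels says that the replicates came from separate cultures, so the p-values measure the spread between these libraries, which may be technical. Each library is captured RNA, so a higher level with TAF3 and a higher level of the same RNA in the transfected cells cannot be told apart.

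TAF3 is a subunit of TFIID, the general transcription factor that binds promoters for RNA polymerase II. Its PHD finger binds histone H3 trimethylated at lysine 4 (H3K4me3), a mark laid down by the SET1 and MLL methyltransferases at the starts of active genes, most of all at CpG islands. A peroxidase brought to that mark labels RNA within a short distance, which can include nascent transcripts of the marked genes and RNAs that reach the site from elsewhere.

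Total counts ranged from 15797217 to 17558305 per library, and genes with at least 1 count numbered 20609 to 20988 in the control libraries and 22963 to 23862 in the TAF3 libraries. Of 39 fibroblast markers 38 were tested, and their summed level in CPM (read counts relative to the TMM-scaled library total) was 15723 to 16870 CPM in controls and 16923 to 17805 CPM with TAF3, with Tcf21 at 0. Counts had been collected over whole gene spans and by strand: of 6575 genes without a base free of another gene on their own strand, 4 had any count, against 3258 of 6371 genes covered only by genes of the opposite strand. Rpl13, Taf9 and Tubb3 were among the fully covered genes and are listed at 0, which says nothing of their expression. TAF3 replicate 1 stood apart in a few structural RNAs, as given with those genes.

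The library content moved with the reader in a small part of the counts. Of 19220 tested genes, 2056 (10.7%) were enriched with TAF3 and 72 (0.375%) were depleted (edgeR quasi-likelihood test with Benjamini-Hochberg adjustment, called where the adjusted p was below 0.05 and the log2 difference reached 0.75 either way). The enriched genes held 0.508% to 0.51% of all counts in the control libraries and 2.27% to 2.69% in the TAF3 libraries. Without Taf3 itself the same genes held 0.495% to 0.498% in controls and 1.43% to 1.89% with TAF3. The median log2 fold change was 2.88 over the enriched genes and 0.02 over all tested genes. Of the enriched genes, 264 had no count in any control library, and with each of those set at the bound given by 3 counts over the control group the median was 2.78. Only 331 enriched genes averaged at least 100 counts per library, and their median log2 fold change was 1.45. Groups did not overlap for 1995 of the enriched and 62 of the depleted genes, beside 20.4% of all tested genes lying wholly higher and 16.4% wholly lower. Without TAF3 replicate 1 the enriched genes numbered 1641, of which 1579 were among the 2056.

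The RNA of the reader gene was checked first. Taf3 (chr2:9914552-10048596, minus strand) stood at 134, 128 and 123 CPM in control replicates 1 to 3 and at 7881, 8223 and 9171 CPM in TAF3 replicates 1 to 3. Every TAF3 library was far above every control library, with a log2 fold change of 6.04 (SE 0.0674, edgeR adjusted p = 1.13e-28). These counts can include reads from the transfected reader, so they check the labels and are no measure of the endogenous gene. Of 17 tested TFIID subunits none but Taf3 was called, and Taf1, the largest subunit, stood at 165, 169 and 166 CPM in controls and 154, 160 and 150 CPM with TAF3.

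The largest rises among RNAs averaging at least 100 counts belonged to genes that were almost silent in the control libraries. Cacna1e, the pore subunit of the R-type voltage-gated calcium channel (chr1:154390731-154884501), had 0.174, 0.383 and 0.241 CPM in controls and 14.4, 15.8 and 16.7 CPM with TAF3, a log2 fold change of 5.85 (SE 0.286, edgeR adjusted p = 3.37e-14). Bfsp2, a beaded-filament protein of the eye lens, had 0.812, 1.15 and 0.903 CPM in controls and 44.2, 41.9 and 38.9 CPM with TAF3. In both genes the groups were separated by more than 10 times the highest control value. Syn3, a synapsin of synaptic vesicles, had 2.78, 1.66 and 3.13 CPM in controls and 62.4, 49.4 and 61 CPM with TAF3, a log2 fold change of 4.50 (edgeR adjusted p = 3.91e-17). Slc1a2, the main glutamate transporter of astrocytes, had 1.22, 1.09 and 0.783 CPM in controls and 25.2, 18.4 and 22.3 CPM with TAF3. Hs3st1, which sulfates heparan sulfate chains, rose by 4.67 on the log2 scale, Rcsd1, a binding partner of the actin capping protein, by 4.70 and Fam135b by 4.39.

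The noncoding RNAs with the largest rises had the same shape. Gm47760, a lincRNA (chr10:17294698-17332877), had 0, 0.256 and 0.0602 CPM in controls and 13, 13.4 and 13.6 CPM with TAF3, resting on 5 control counts and 674 TAF3 counts (log2 fold change 6.94, SE 0.388, edgeR adjusted p = 4.58e-13). Gm47271, an antisense RNA (chr9:58979251-59033856), was the most abundant of the 6, with 1.68, 1.02 and 1.45 CPM in controls and 60.6, 53.5 and 50.7 CPM with TAF3. The other lincRNAs among the 6 were Gm20139, 1700026F02Rik, Gm15218 and Gm47719, with log2 fold changes of 5.78, 5.63, 5.44 and 5.32. None of the 6 overlapped between groups, which was a condition of being named here.

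**Figure D1:**
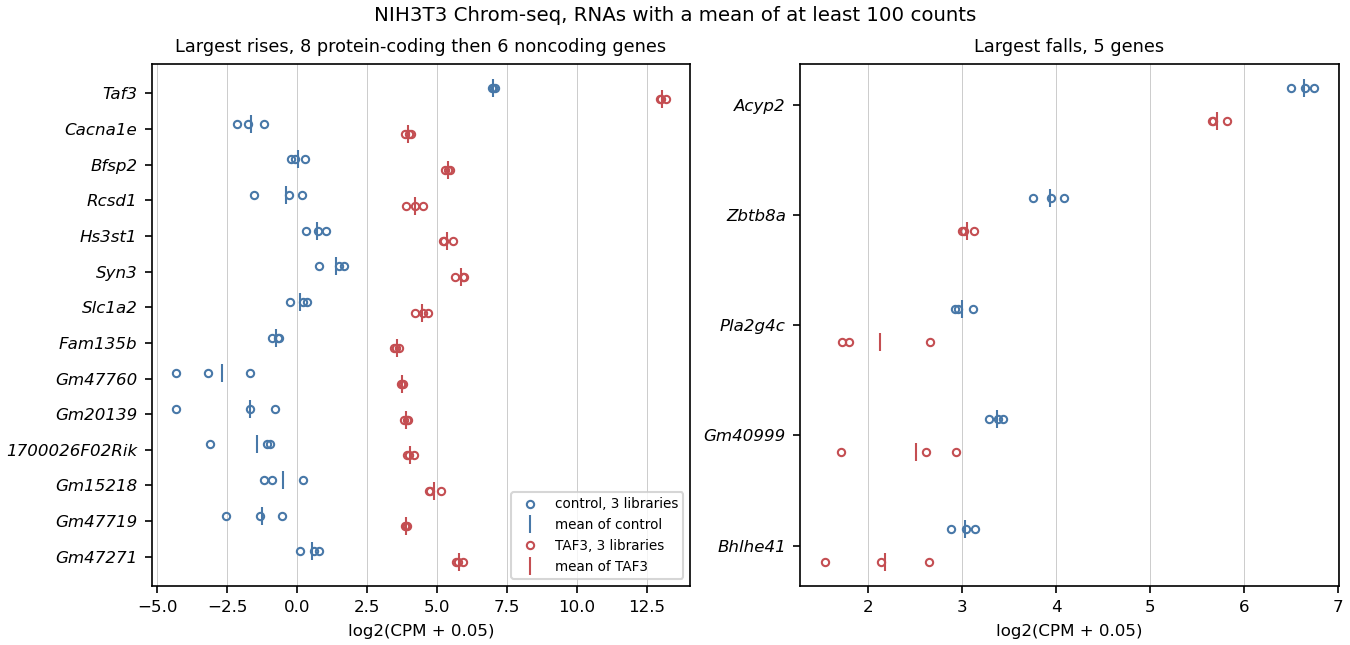
Level of each named RNA as log2(CPM + 0.05) in the 3 control libraries (blue circles) and the 3 TAF3 libraries (red circles), with group means as vertical bars; among called genes that averaged at least 100 counts and did not overlap between groups, the left panel holds the 8 protein-coding and 6 noncoding RNAs with the largest rises and the right panel the 5 largest falls. Taf3 lies far to the right of the other rises, which sit below 2 on this scale in controls, and the 5 falls are far smaller, from Acyp2 at -0.92 to Bhlhe41 at -0.86 in log2 fold change.

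The abundant end of the enriched RNAs showed smaller but tight differences. P2rx7, an ATP-gated cation channel, had 62.6, 58.1 and 57.9 CPM in controls and 281, 251 and 245 CPM with TAF3, a log2 fold change of 2.12 (SE 0.0662, edgeR adjusted p = 3.48e-18). Helz2, a helicase that acts as a nuclear receptor coactivator, had 147, 150 and 150 CPM in controls and 260, 248 and 291 CPM with TAF3 (log2 fold change 0.83). Aig1, a hydrolase of fatty acid esters, rose by 0.98 and Tor3a, a torsin ATPase of the endoplasmic reticulum, by 0.80. The lincRNA Gm50397 went from 10.2, 15.5 and 10.1 CPM to 126, 121 and 106 CPM, the highest TAF3 level of any enriched lincRNA. In this abundance range TAF3 replicate 1 or 3 decided a few other values. CT010467.1, annotated as ribosomal RNA, had 302, 317 and 250 CPM in controls and 1761, 377 and 376 CPM with TAF3, and its log2 fold change of 1.53 became 0.38 without TAF3 replicate 1. The mitochondrial ribosomal RNA mt-Rnr2 had 426, 385 and 425 CPM in controls and 2032, 465 and 364 CPM with TAF3, and its log2 fold change of 1.21 became 0.01 without that library. Rpl37, a ribosomal protein gene, had 174, 176 and 218 CPM in controls and 290, 252 and 667 CPM with TAF3, and its value of 1.09 became 0.52 without TAF3 replicate 3. None of the 3 was called without the library named.

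Across gene types, the intergenic long noncoding RNAs (lincRNA) held the highest enriched share among types with at least 100 tested genes. Of 1449 tested lincRNAs 469 (32.4%) were enriched and 3 depleted, and the median log2 fold change over all tested lincRNAs was 0.89. Enriched lincRNAs had a median control level of 0.143 CPM, so many passed the filter on summed counts only through their TAF3 counts. The lincRNA share and median are thus in part set by the filter. Of 531 lincRNAs averaging at least 20 counts over the 6 libraries, 201 (37.9%) were enriched, beside 7.85% of all such genes. That mean also includes the TAF3 libraries. Antisense RNAs, which run opposite to another gene, were enriched in 159 of 1327 cases (12%), processed transcripts in 61 of 428 (14.3%) and protein-coding genes in 1232 of 14349 (8.59%), beside 10.7% of all tested genes. RNAs that start from a promoter shared with a coding gene (bidirectional promoter lncRNA) were enriched in 6 of 122 cases (4.92%). Pseudogene types together gave 92 of 1047 (8.79%), and 20 of 86 transcribed processed pseudogenes (23.3%) were enriched. No small nuclear RNA among 33 was called enriched. Of the enriched genes 40.1% were not protein-coding, against 25.3% of the tested genes. With genes averaging at least 20 counts the shares were 34% and 13.8%. The Wilson interval of the 40.1% at 95%, 38% to 42.2%, treats genes as independent draws and does not cover the spread between libraries. Among the depleted genes 50% were not protein-coding.

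**Figure D2:**
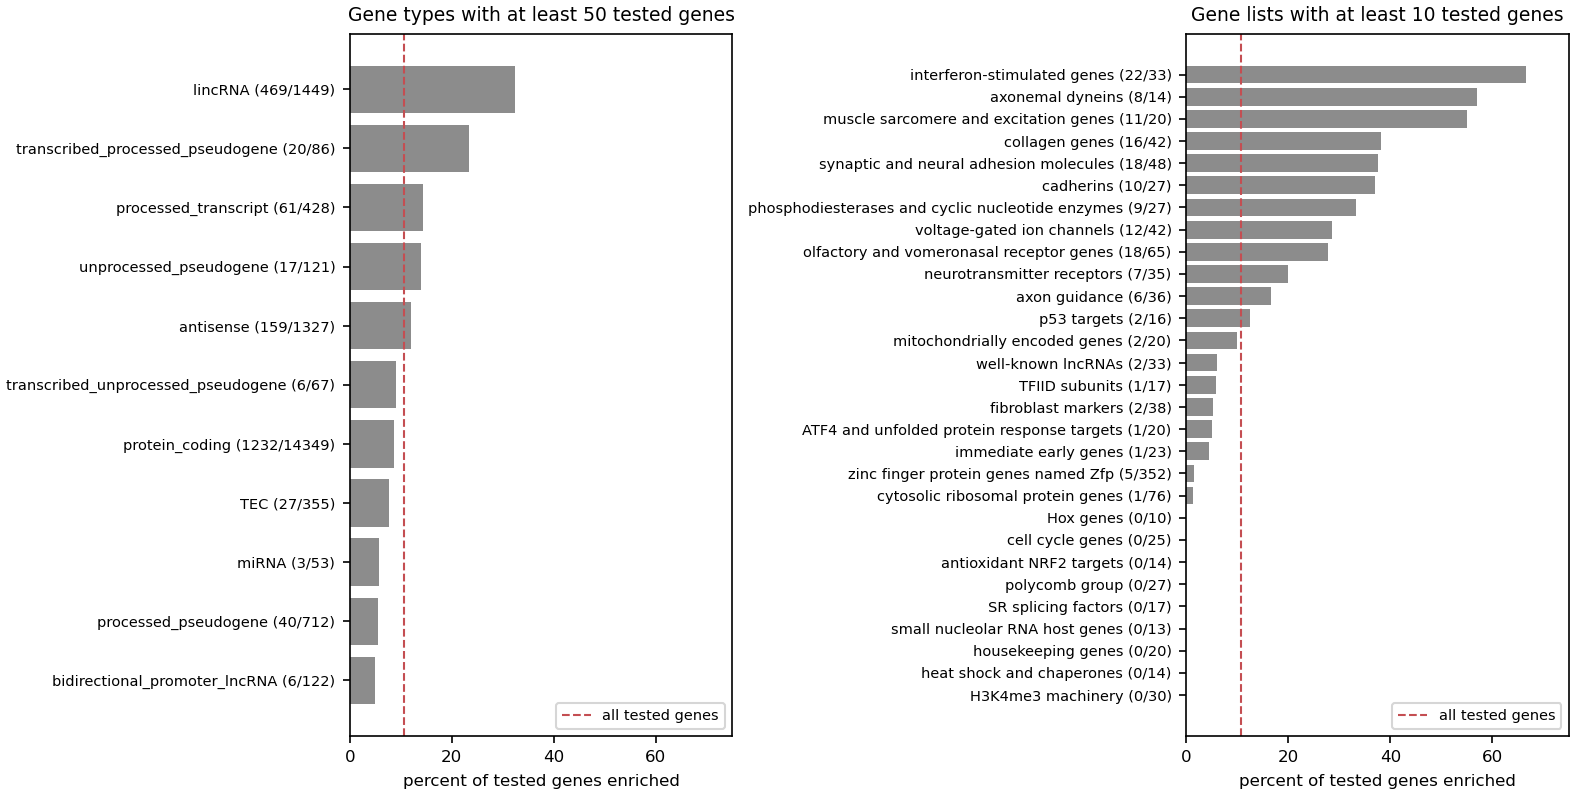
Bars give the percent of tested genes that were enriched with TAF3, by gene type (left, types with at least 50 tested genes) and by gene list (right, lists with at least 10 tested genes); labels give enriched and tested genes, and the dashed line marks the 10.7% of all tested genes. LincRNAs at 32.4% and interferon-stimulated genes at 66.7% head the panels, and 9 lists at the foot of the right panel have no enriched member.

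Of 33 tested well-known long noncoding RNAs, 27 of which averaged at least 100 counts, 2 were enriched (6.06%, beside 10.7% of all tested genes) and none depleted, with a median log2 fold change of -0.10. Sox2ot, which overlaps the Sox2 gene, had 4.75, 3.77 and 2.65 CPM in controls and 17.6, 17.4 and 16.7 CPM with TAF3 (log2 fold change 2.21, edgeR adjusted p = 1.52e-09). Miat had 3 control counts in all and 0.623, 0.955 and 0.675 CPM with TAF3. None of 13 small nucleolar RNA host genes was called by edgeR or DESeq2, and 3 had an unadjusted edgeR p under 0.05. Without control replicate 2, control replicate 3 or TAF3 replicate 2, 1 of the well-known RNAs was enriched.

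Enriched genes were long, short of exons and poor in promoter CpG. The median annotated span was 38.2 kb for enriched genes, 19.2 kb for genes not called and 7.92 kb for depleted genes. Exons of the annotation filled a median of 7.99% of the span in enriched genes and 19% in genes not called. In the 300 bases at the gene start, from 250 before it to 50 after, the median CpG observed-to-expected ratio was 0.317 in enriched genes, 0.424 in depleted genes and 0.658 in genes not called. The ratio passed 0.6 in 22.2% of enriched genes and 55.3% of genes not called, and within protein-coding genes in 30.5% and 62.7%. Overlap with a gene on the same strand was found in 22.5% of enriched genes and 19.4% of genes not called. These are descriptions over genes that share the same libraries, and no test was made.

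Both properties were graded, and in coding genes and lincRNAs alike. Among protein-coding genes 4.39% of those under 5 kb and 25.4% of those over 200 kb were enriched. Among lincRNAs the shares rose from 16.9% under 5 kb to 50.3% at 50 to 100 kb, were 45.4% at 100 to 200 kb, and reached 61.4% of the 44 lincRNAs over 200 kb. By promoter CpG ratio, the share in protein-coding genes was 19.8% below 0.2 and 3.18% at 0.8 and above. In lincRNAs it was 37.8% below 0.2, 38.4% from 0.2 to 0.4 and 9.09% at 0.8 and above. Abundance moved with these groups: by mean count per library, 22.4% of tested genes were enriched between 10 and 30 counts and 0.356% above 1000 counts, and the part of abundance in the gradients was not tested. With genes averaging at least 20 counts the enriched genes had a median span of 48.2 kb against 23.3 kb for genes not called.

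**Figure D3:**
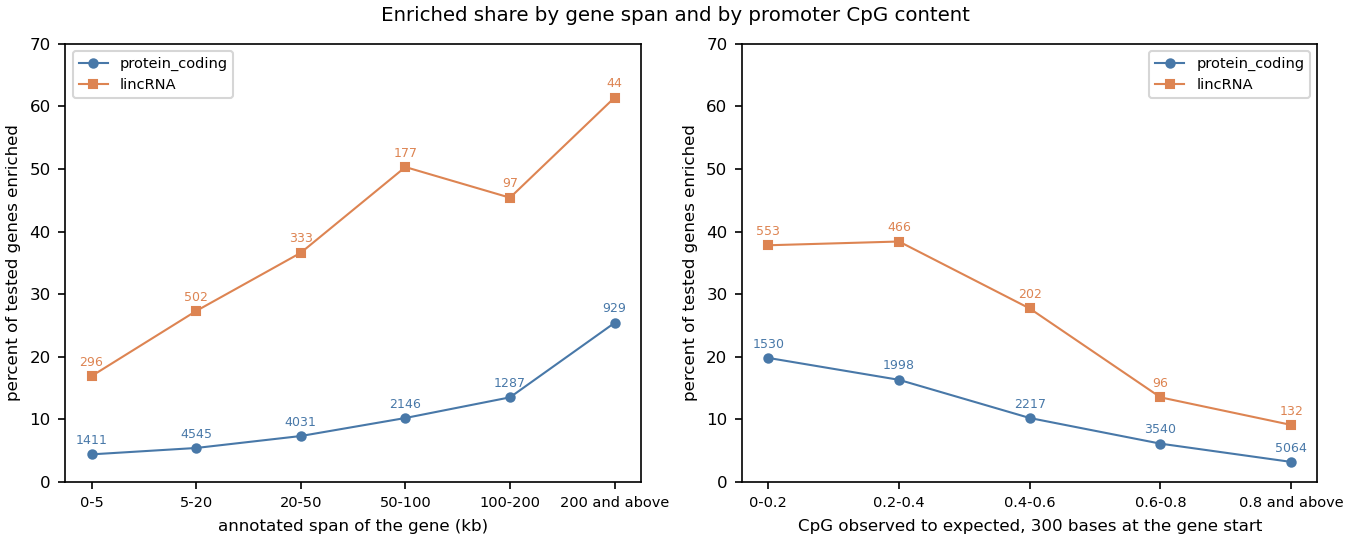
Percent of tested genes enriched (vertical axis) by annotated span in kb (left) and by CpG observed-to-expected ratio of the 300 bases at the gene start (right), for protein-coding genes (blue circles) and lincRNAs (orange squares), with the number of tested genes at each point. Shares climb with span in protein-coding genes, from 4.39% to 25.4%, and are lowest at the highest CpG content in both types, with lincRNAs above protein-coding genes in every bin.

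The gene starts of enriched RNAs are shown for a CpG-poor and 2 CpG-richer cases, to make that spread visible. Each line gives the 300 bases 5′ to 3′ on the strand of the gene, from mm10 of RefSeq, with CpG in capitals. Gm47760 (chr10:17332828-17333127, minus strand) holds 2 CpG, Cacna1e (chr1:154884452-154884751, minus strand) 12 and Col5a3 (chr9:20815018-20815317, minus strand) 20.
Gm47760: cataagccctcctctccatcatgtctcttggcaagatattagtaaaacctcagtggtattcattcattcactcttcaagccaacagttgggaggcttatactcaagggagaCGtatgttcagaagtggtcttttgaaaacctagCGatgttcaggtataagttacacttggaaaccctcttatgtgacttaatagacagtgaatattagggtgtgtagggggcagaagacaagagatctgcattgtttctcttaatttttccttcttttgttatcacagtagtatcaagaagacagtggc
Cacna1e: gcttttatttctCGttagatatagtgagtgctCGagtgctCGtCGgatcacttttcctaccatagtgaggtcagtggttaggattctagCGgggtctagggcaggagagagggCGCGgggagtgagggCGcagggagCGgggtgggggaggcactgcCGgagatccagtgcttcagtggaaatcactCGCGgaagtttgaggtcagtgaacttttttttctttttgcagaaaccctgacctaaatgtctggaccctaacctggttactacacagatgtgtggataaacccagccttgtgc
Col5a3: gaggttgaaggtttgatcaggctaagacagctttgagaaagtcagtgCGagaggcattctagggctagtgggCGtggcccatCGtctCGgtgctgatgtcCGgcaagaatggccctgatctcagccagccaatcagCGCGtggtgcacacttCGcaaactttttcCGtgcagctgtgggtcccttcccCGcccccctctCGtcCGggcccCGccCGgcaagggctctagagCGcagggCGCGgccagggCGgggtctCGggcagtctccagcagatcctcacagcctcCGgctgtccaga
The CpG observed-to-expected ratios of these stretches are 0.164, 0.619 and 0.665, so the start of Cacna1e lies above the 0.6 mark and that of Gm47760 far below it. The letters TATAAA, searched on both strands of the same windows, occur in 12.8% of enriched genes, 9.43% of genes not called and 9.79% of all tested genes.

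Interferon-stimulated genes had the highest enriched share of any list with at least 10 tested members. Of 33 tested, 22 were enriched and none depleted (66.7%, beside 10.7% of all genes), with a median log2 fold change of 1.13 against 0.02 for all genes. These genes are switched on by type I interferon, and 16 of the 22 averaged at least 100 counts over the 6 libraries. Ifit1, which binds foreign RNA ends, had 38.2, 35.3 and 42.3 CPM in controls and 88.4, 88.8 and 76.8 CPM with TAF3 (log2 fold change 1.13, edgeR adjusted p = 1.37e-10). Isg15, a ubiquitin-like modifier, had 41.7, 37.3 and 48.2 CPM in controls and 84.3, 89.6 and 77.5 CPM with TAF3. Usp18, which removes that modifier, had 31.1, 34.1 and 36.7 CPM in controls and 75.6, 76.2 and 69.1 CPM with TAF3. In all 3 genes the lowest TAF3 library was above the highest control library.

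Among the antiviral effectors, Isg20, an exonuclease, had 9.39, 11.5 and 9.88 CPM in controls and 34.5, 32.3 and 35 CPM with TAF3 (log2 fold change 1.73, edgeR adjusted p = 4.86e-11). Oas3, which makes the activator of RNase L, had the largest rise of the list, from 1.28, 2.56 and 1.69 CPM to 7.42, 7.34 and 9.17 CPM (log2 fold change 2.12). Oasl1 rose by 1.91 and Mx1, a dynamin-like GTPase annotated as a polymorphic pseudogene in the reference strain, by 1.76. Oas1a, Oas2, Rsad2, Irf7 and Zbp1 rose by 1.72, 1.44, 1.42, 1.35 and 1.39. Of the members named, all but Isg20, Oas3, Oasl1, Mx1 and Trim25 were chosen with their values known. The list's most abundant member, Trim25, was not called: it had 190, 191 and 192 CPM in controls and 243, 248 and 221 CPM with TAF3, a log2 fold change of 0.31 that is below the fold threshold. The summed level of the list was 778 to 836 CPM in controls and 1272 to 1352 CPM with TAF3. Between 20 and 22 members were enriched when each library was left out in turn.

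**Figure D4:**
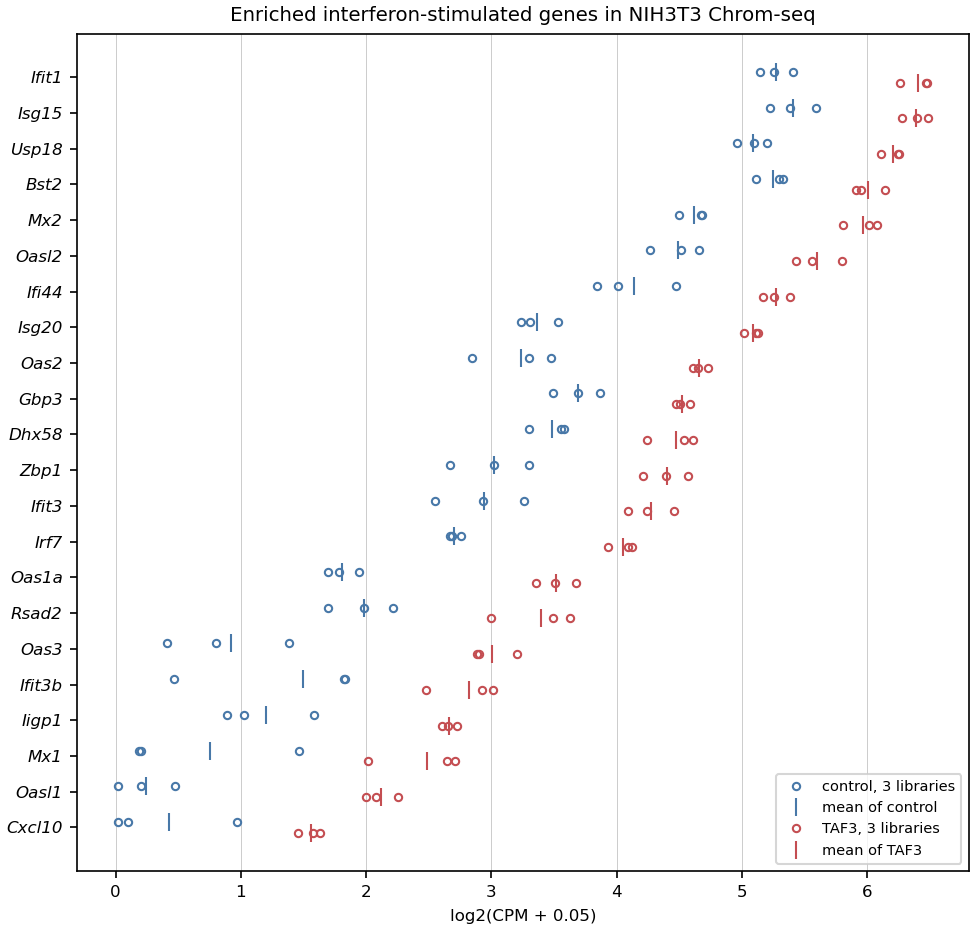
Level of each enriched interferon-stimulated gene as log2(CPM + 0.05) in the 3 control libraries (blue) and the 3 TAF3 libraries (red), ordered by the mean with TAF3, with group means as vertical bars. The TAF3 means of all 22 genes lie to the right of their control means, with Ifit1 at the top and log2 fold changes of up to 2.12, in Oas3.

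The starts of interferon-stimulated genes carry a known element, the interferon-stimulated response element, whose core was searched here on both strands as GAAA, any 2 bases, and GAAA again. It lies in the 300 bases at the start of 16 of the 22 enriched members (72.7%), of 19 of the 33 tested members (57.6%), and of 3.37% of all 19220 tested genes. In enriched genes as a whole the share was 3.79%. The starts of 4 enriched members are shown with each match in capitals, on the strand of the gene, from mm10 of RefSeq: Ifit1 (chr19:34640621-34640920, plus), Isg15 (chr4:156200747-156201046, minus), Usp18 (chr6:121245656-121245955, plus) and Mx2 (chr16:97535058-97535357, plus).
Ifit1: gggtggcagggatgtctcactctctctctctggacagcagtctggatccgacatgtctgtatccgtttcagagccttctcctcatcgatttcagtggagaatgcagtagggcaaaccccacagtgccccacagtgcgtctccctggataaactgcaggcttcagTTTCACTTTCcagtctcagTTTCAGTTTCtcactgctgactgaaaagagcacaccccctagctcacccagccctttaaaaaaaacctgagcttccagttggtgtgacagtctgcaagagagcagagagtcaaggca
Isg15: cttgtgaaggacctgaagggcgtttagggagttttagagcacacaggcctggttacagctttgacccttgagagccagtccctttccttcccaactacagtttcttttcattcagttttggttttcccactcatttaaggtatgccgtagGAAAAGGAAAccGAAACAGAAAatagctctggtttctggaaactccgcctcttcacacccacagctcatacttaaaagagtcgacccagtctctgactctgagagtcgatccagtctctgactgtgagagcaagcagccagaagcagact
Usp18: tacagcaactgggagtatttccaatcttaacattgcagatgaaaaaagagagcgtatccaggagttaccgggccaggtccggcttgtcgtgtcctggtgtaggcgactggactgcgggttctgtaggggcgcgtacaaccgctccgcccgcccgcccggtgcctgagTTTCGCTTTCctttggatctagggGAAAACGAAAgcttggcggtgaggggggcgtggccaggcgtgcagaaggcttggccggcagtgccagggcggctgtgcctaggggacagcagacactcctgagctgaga
Mx2: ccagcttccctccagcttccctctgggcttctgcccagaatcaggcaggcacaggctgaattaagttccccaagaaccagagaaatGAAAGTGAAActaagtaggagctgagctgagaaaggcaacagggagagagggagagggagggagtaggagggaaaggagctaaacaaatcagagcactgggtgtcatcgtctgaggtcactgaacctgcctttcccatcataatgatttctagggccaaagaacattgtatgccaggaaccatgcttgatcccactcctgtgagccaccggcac
Ifit1, Isg15 and Usp18 hold 2 matches each and Mx2 holds 1. A match is a description of the letters and not of a bound site.

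Of 20 tested muscle genes 11 were enriched (55%, beside 10.7% of all tested genes), 8 of 13 sarcomere genes and 3 of 7 calcium release or membrane genes, with a median log2 fold change of 1.45. Tnnt2, cardiac troponin T, had 30.3, 37.1 and 36.2 CPM in controls and 80.5, 76.4 and 67.6 CPM with TAF3 (log2 fold change 1.11, edgeR adjusted p = 6.69e-10). Ryr1, the calcium release channel of skeletal muscle, had 7.65, 7.48 and 7.23 CPM in controls and 26.2, 30.4 and 28.4 CPM with TAF3. The largest rises were those of Ryr2, the cardiac release channel, by 4.31 from 3 control counts to 69 TAF3 counts, and of Mybpc3, cardiac myosin-binding protein C, by 3.61 from 6 counts to 78. Tnnt2 and Ryr1, being more abundant, were picked with their values known. Ryr2, Mybpc3, Nebl and Ryr3, with 3, 6, 4 and 16 control counts, passed the filter on summed counts (over 18) only through their TAF3 counts. The count of 11 enriched is thus in part set by the filter. Of the 8 members averaging at least 100 counts, 6 were enriched. The most abundant member, Dysf, a membrane repair protein, had 97.6, 83.2 and 88 CPM in controls and 89.8, 78.4 and 102 CPM with TAF3.

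Of 14 tested axonemal dynein heavy chains, the motors of motile cilia, 8 were enriched (57.1%, beside 10.7% of all tested genes), with a median log2 fold change of 1.81. Dnah11 had 0, 0.0639 and 0.422 CPM in controls and 6.36, 5.08 and 5.46 CPM with TAF3, and Dnah14 had 0.174, 0.703 and 0.422 CPM in controls and 6.23, 5.67 and 7.99 CPM with TAF3. Both genes were higher in every TAF3 library than in any control library. Dnah11, Dnah9 and Dnah8, with 8, 10 and 5 control counts, passed the filter on summed counts only through their TAF3 counts. The count of 8 enriched is thus in part set by the filter. Of the 2 members averaging at least 100 counts, 1 was enriched. The most abundant member, Dnah10, rose by 1.40 on the log2 scale.

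Genes of neural families were enriched in part. Synaptic and neural adhesion molecules gave 18 enriched of 48 tested (37.5%), voltage-gated ion channels 12 of 42 (28.6%), neurotransmitter receptors 7 of 35 (20%) and axon guidance genes 6 of 36 (16.7%), beside 10.7% of all genes. Within the channels 4 of 9 calcium channel alpha subunits and 6 of 17 potassium channels were enriched. Scn8a, a neuronal sodium channel, rose by 5.03 on the log2 scale from 1 control count to 46 TAF3 counts. Kcnq5, a subunit of the M-type potassium channel, had 0.232, 0 and 0.542 CPM in controls and 6.04, 6.03 and 7.04 CPM with TAF3 (log2 fold change 4.57). Sdk2, a sidekick adhesion protein of retinal synapses, had 0.522, 0.256 and 0.602 CPM in controls and 11.2, 7.76 and 8.84 CPM with TAF3, and Csmd2 rose by 4.77. Astn1 and Cntn2 had no control count and their TAF3 counts gave lower bounds of at least 9.79-fold and 15-fold against 3 counts over the control group. Some enriched members of each family passed the filter on summed counts only through their TAF3 counts. Examples are Scn8a, Chrm3, Csmd2 and Robo3, with 1, 2, 8 and 1 control counts. The enriched counts of these families are thus in part set by the filter. Among members averaging at least 100 counts, 5 of 14 adhesion molecules, 4 of 14 channels, 2 of 9 receptors and 0 of 20 axon guidance genes were enriched. The most abundant channel and guidance gene were not: Cacna1c, the L-type calcium channel, had 1088, 1026 and 975 CPM in controls and 834, 814 and 877 CPM with TAF3, and Slit2, a guidance ligand, 2174, 2323 and 2023 CPM in controls and 1832, 1915 and 1832 CPM with TAF3.

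Of 42 tested collagen genes 16 were enriched (38.1%, beside 10.7% of all tested genes), with a median log2 fold change of 0.60. Col5a3, a chain of the fibril-regulating type V collagen, had 30.7, 37.3 and 32 CPM in controls and 94.8, 83.2 and 82.8 CPM with TAF3 (log2 fold change 1.38, edgeR adjusted p = 4.71e-12), and was picked with its values known. Col6a5, a type VI chain, rose by 4.87 from a mean of 0.241 CPM, while Col1a2, a chain of type I collagen, had 972, 859 and 927 CPM in controls and 915, 849 and 989 CPM with TAF3. Col15a1, Col13a1, Col6a5 and Col19a1, with 0, 0, 12 and 7 control counts, passed the filter on summed counts only through their TAF3 counts. The count of 16 enriched is thus in part set by the filter. Of 24 collagens averaging at least 100 counts 6 were enriched. Of 38 fibroblast markers (5.26% enriched) only Col12a1 and Tagln were enriched, by 0.84 and 0.91. Of 27 tested cadherins 10 were enriched (37%, and 3 of the 12 averaging at least 100 counts), among them Cdh4, by 3.74, and Dchs2, by 2.33, and Pcdh7, the most abundant, had 1023, 1070 and 998 CPM in controls and 893, 835 and 863 CPM with TAF3. Without TAF3 replicate 1, 5 cadherins were enriched. The enriched cadherin Cdh1, with 11 control counts, passed the filter only through its TAF3 counts. Phosphodiesterases and adenylyl cyclases gave 9 of 27 (33.3%), and 1 of the 10 averaging at least 100 counts. Pde6c, Adcy2, Pde3b and Pde6b, with 0, 2, 2 and 5 control counts, passed the filter only through their TAF3 counts. The count of 9 is thus in part set by the filter.

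Markers of other cell types were at low levels and higher with TAF3 in several lists, with 10.7% of all tested genes enriched. All 6 tested epithelial markers were enriched, though 3 without control replicate 3 or TAF3 replicate 1 and 3 with the stricter filterByExpr minimum, with summed levels of 2.15 to 2.36 CPM in controls and 9.08 to 10.8 CPM with TAF3, and Krt5 and Cldn4 at 0 in every library. Of the 12 epithelial markers listed, 6 passed the filter on summed counts, and Grhl2, Krt18, Esrp1 and Ocln, with 3 control counts each, passed it only through their TAF3 counts, so the count of 6 is in large part set by the filter. Endothelial markers gave 4 of 6, with sums of 24.5 to 26 CPM and 78.9 to 96.3 CPM, and Vwf, von Willebrand factor, carried most of this, with 12.3, 11.4 and 10.7 CPM in controls and 55.2, 47.9 and 58.1 CPM with TAF3. Neuronal markers gave 3 of 8, with sums of 50 to 58.8 CPM in controls and 68.2 to 73.6 CPM with TAF3. Of these, Elavl4 and Rbfox3, with 0 and 1 control counts, passed the filter only through their TAF3 counts. The third, Map2, rose from a mean of 16 CPM to 28.4 CPM. Immune markers gave 2 of 5, with sums of 2.94 to 4.22 CPM and 10.6 to 12 CPM, and 1 of 5 without TAF3 replicate 3. None of 3 hepatocyte markers was called by edgeR or DESeq2, 0 had an unadjusted p under 0.05, and Ttr, Fga and Tat were at 0. Germ cell markers had 1 depleted gene, Sycp1, of 2 tested. Their part in the other results was not tested.

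Most lists of basic cell functions had few called genes or none, beside 10.7% of all tested genes. None of 30 tested genes of the H3K4me3 machinery, which writes, reads and erases the mark, was called, and Kmt2d, a methyltransferase, had 627, 635 and 572 CPM in controls and 582, 516 and 598 CPM with TAF3. None of 25 cell cycle genes, 27 polycomb genes, 17 SR splicing factors, 14 chaperones, 14 antioxidant targets of NRF2, 20 housekeeping genes or 10 Hox genes was called either, by edgeR or by DESeq2. An unadjusted edgeR p under 0.05 was reached by 12 of the 30 H3K4me3 genes. In the order just given it was reached by 12, 13, 10, 8, 12, 8 and 2 genes of the other lists. None of these genes passed the fold threshold. Most members lay slightly lower with TAF3. The log2 fold change was positive in 10 of the 30 H3K4me3 genes, and in the same order in 2, 4, 4, 3, 3, 8 and 1 genes. Median log2 fold changes were -0.06 for the H3K4me3 genes and -0.16, -0.18, -0.13, -0.11, -0.25, -0.04 and -0.34 for the others. Of 76 cytosolic ribosomal protein genes 1, Rpl37, was called, of 352 zinc finger genes named Zfp 5 were enriched and 2 depleted, and of 16 p53 targets 2 (12.5%), Pmaip1 and Btg2, were enriched, a share near that of all genes. Without TAF3 replicate 1 no p53 target was called, and 1 was without control replicate 1, control replicate 2 or TAF3 replicate 2. Olfactory and vomeronasal receptor genes, expressed in sensory neurons, were mostly silent: of 1763 listed genes, 1401 had no count, 65 were tested and 18 were enriched, or 11 with filterByExpr, beside 10.7% of all tested genes. Members such as Olfr432 and Olfr456, with no control count and 69 and 61 TAF3 counts, entered the test only through the TAF3 libraries, so these counts do not describe the family. Vmn1r88, the most abundant, had 2.15, 1.66 and 0.723 CPM in controls and 24.4, 25.4 and 22.3 CPM with TAF3.

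Enriched genes lay next to each other more often than other genes did, as a description along the chromosomes. The next tested gene was enriched after 475 of 2055 enriched genes (23.1%) and after 9.2% of the other genes. For neighbours whose spans do not overlap, the shares were 27.4% after an enriched gene on the same strand and 18.5% after one on the opposite strand, against 10% and 9.66% after other genes. Of the enriched genes, 264 had no control count and 317 had 1 to 3, so these were tested only through their TAF3 counts. The shares by neighbour and the runs are thus in part set by the filter. There were 9 runs of at least 5 enriched genes. The longest held 8 genes over 0.836 Mb (chr1:173986926-174822729), among them the interferon-inducible Ifi205, the olfactory receptor genes Olfr433, Olfr432, Olfr430 and Olfr420, and the formin gene Fmn2. Another held Tmprss11a, Tmprss11g, Tmprss11f, Tmprss11b and Tmprss11e, serine proteases of epithelia (chr5:86410410-86817106). By chromosome, 15.3% of tested genes were enriched on chromosome 1 and 3.56% (19 of 533) on chromosome X, and among protein-coding genes 13.4% and 2.33%.

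A run of 7 noncoding RNAs spanned 2.36 Mb on chromosome 10 (chr10:15300231-17658513) and held Gm47760. Gm20125, its most abundant member, had 12.1, 12.5 and 11.8 CPM in controls and 41.5, 37.8 and 41.4 CPM with TAF3 (log2 fold change 1.73, edgeR adjusted p = 6.73e-12). Gm47771 had 0.232, 0.0639 and 0.422 CPM in controls and 8.54, 7.4 and 6.36 CPM with TAF3. The run was picked as enriched genes in a row, so every member is higher with TAF3. Gm47710, Gm47729, Gm47769 and Gm47770, with 6, 2, 0 and 0 control counts, passed the filter only through their TAF3 counts. The length of the run is thus in part set by the filter. Of the coding genes near the run, Vta1 and Cited2 had log2 fold changes of 0.06 and 0.41 and were not called, while Nhsl1, Adgrg6 and Ect2l were enriched, by 1.08, 3.11 and 3.47 (edgeR adjusted p = 0.00514, 0.0459 and 0.0497).

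**Figure D5:**
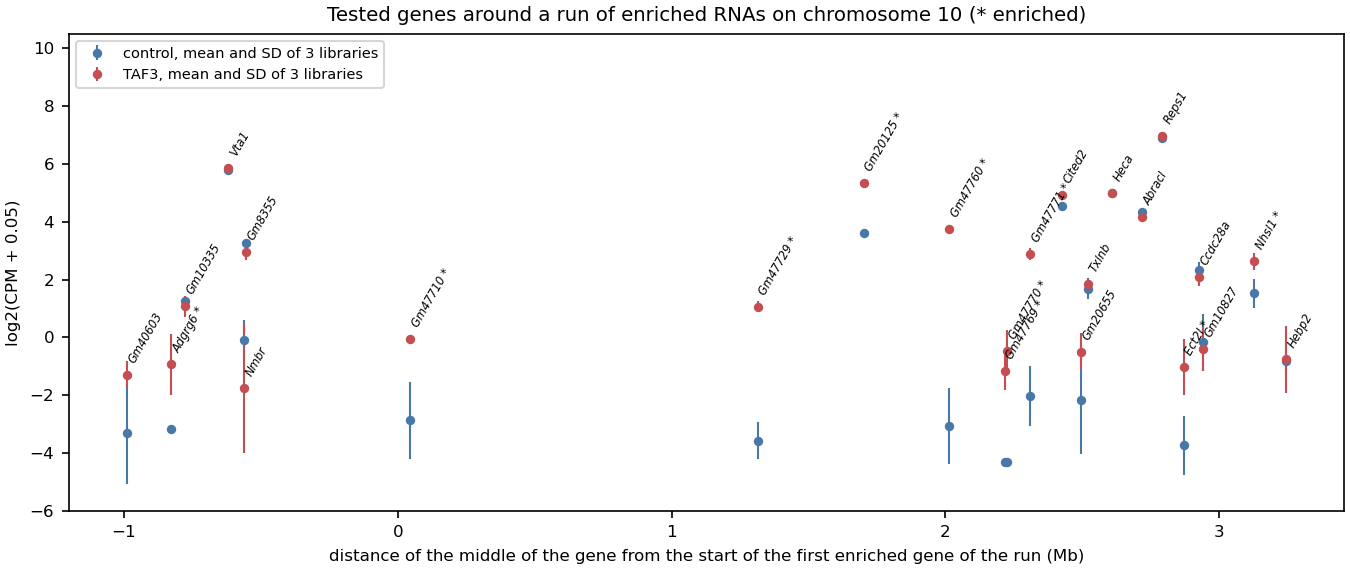
Mean log2(CPM + 0.05) with SD over 3 libraries for every tested gene within 1 Mb of the run on chromosome 10, in control (blue) and TAF3 (red) libraries, against the distance in Mb of the middle of the gene from the start of the run. The 7 noncoding RNAs of the run are higher with TAF3 because the run was picked as enriched genes in a row. The red and blue points of the abundant genes around them, such as Vta1, Heca and Reps1, lie on top of each other.

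Depletion past the fold threshold was rarer and smaller than enrichment. Inside the threshold the balance was the other way. There, 1809 genes were lower and 603 higher with TAF3 at an edgeR adjusted p below 0.05. The 72 depleted genes had a median log2 fold change of -1.09, and the 13 that averaged at least 100 counts had one of -0.85. Acyp2, an acylphosphatase, had 100, 107 and 90.3 CPM in controls and 50.8, 56.1 and 50.3 CPM with TAF3, and fell by 0.92 on the log2 scale (SE 0.0769, edgeR adjusted p = 9.89e-10). Zbtb8a, a zinc finger protein, fell by 0.88, Pla2g4c, a phospholipase, by 0.88 and Bhlhe41, a repressor in the circadian clock, by 0.86. The noncoding RNAs Gm40999, 9330179D12Rik and Gm28055 fell by 0.86, 0.85 and 0.84. Without TAF3 replicate 3, Pla2g4c (-0.71), Bhlhe41 (-0.61) and Gm28055 (-0.69) were no longer called. Without TAF3 replicate 1, Pla2g4c (-0.74) and Gm40999 (-0.58) were not called, and 9330179D12Rik (-0.64) was not called without TAF3 replicate 2. Chchd10, a mitochondrial protein gene with 23 control counts and none with TAF3, was picked with its values known.

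The same reader was used in Neuro-2a, a mouse neuroblastoma line, with 3 TAF3 and 3 control libraries of its own, and the difference of the enrichments was tested in 1 model over the 12 libraries (NIH3T3 minus Neuro-2a). Of 19509 genes tested for it, 455 (2.33%) had a larger log2 fold change in NIH3T3 and 140 (0.718%) in Neuro-2a. The reader RNA differed too: Taf3 rose from 183 ± 15.3 to 1741 ± 142 CPM in Neuro-2a (SD, n = 3) and from 128 ± 5.33 to 8425 ± 668 CPM in NIH3T3, a difference of 2.80 on the log2 scale, and its part in the other differences was not tested. Interferon-stimulated genes had 7 members with a larger value in NIH3T3 and none in Neuro-2a, where 1 of 27 tested members was enriched, beside 1.01% of all genes tested there, and the median log2 fold change was 0.07. For Isg20 the difference was 1.62 (edgeR adjusted p = 0.000706) and for Oasl1 it was 2.12 (edgeR adjusted p = 0.00259). For Oas1a the difference was -0.05, with log2 fold changes of 1.72 and 1.75, though it was not called in Neuro-2a. The member enriched in Neuro-2a was Mx1, by 1.71 (edgeR adjusted p = 0.0383), and its difference was 0.05. Larger values in NIH3T3 were also found for 11 of the 48 adhesion molecules and 6 of the 20 muscle genes.

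Syn3 was at 71.4 ± 2.49 CPM in Neuro-2a controls and 72.6 ± 6.39 CPM with TAF3 there (SD, n = 3), and its enrichments differed between the lines by 4.49 (edgeR adjusted p = 2.19e-09). Fam135b was alike, at 49.3 ± 2.35 CPM in Neuro-2a controls, with a difference of 4.25. Cacna1e and Bfsp2 were scarce in the controls of both lines and differed by 4.55 and 4.05. P2rx7, at 56.5 ± 4.44 CPM in Neuro-2a controls and 59.5 ± 2.68 CPM in NIH3T3 controls, differed by 1.44 (edgeR adjusted p = 1.53e-06), from about equal control levels. Gm47271 rose in both lines, by 5.29 in NIH3T3 and 4.84 in Neuro-2a, and its difference of 0.46 had an edgeR adjusted p of 0.782 with an SE of 0.512. Among genes with the largest differences towards Neuro-2a, Tns3, an adhesion adaptor, was at 369 ± 13.1 CPM in NIH3T3 controls, was not called there, and had no count in Neuro-2a controls and 0.918 ± 0.255 CPM with TAF3.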

How the data were processed

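The 6 NIH3T3 and 6 Neuro-2a Chrom-seq libraries were analysed. The authors deposited raw counts, with 1 value per gene and library. Per the submitters' processing notes and the study's methods, reads were trimmed with fastp 0.23.1 after FastQC 0.11.8, aligned to mm10 with HISAT2 2.1.0, and counted with featureCounts 2.0.1 over GENCODE genes. The random bases of the reads were trimmed off, so these are reads and not molecules. The interval given for the noncoding share treats genes as independent draws. The table gives each of 55401 genes its whole span as length, so intronic reads may be counted. Every column belonged to a listed sample. The study's own DESeq2 1.34.0 results were not used.

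Genes with a summed count over 18 (36 for both lines) were tested by quasi-likelihood in edgeR 4.0.16 (R 4.3.3), with TMM scaling and Benjamini-Hochberg adjustment. SE is the absolute log2 fold change divided by the square root of the F statistic. CPM is the count relative to the TMM-scaled library total. Depth was 15797217 to 17558305 counts in NIH3T3. No pair of replicates was identical. Tested on simulated data for the NIH3T3 comparison, with 19213 genes, the test recovered 199 of 200 changed genes with 1 false call. For the difference between lines, with 19536 genes, it recovered 165 of 200 with 2 false calls. The changed genes averaged at least 20 counts and moved by 1.5 on the log2 scale, equally up and down. All genes shared 1 spread, the NIH3T3 biological coefficient of variation of 0.101, while that of Neuro-2a was 0.169. Recovery at lower counts, or with a spread that differs between genes, was not measured. Same-numbered replicates did not deviate together, with correlations of -0.002, -0.006 and 0.007, so no pairing was used.

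Alternatives were DESeq2 1.42.0, its size factors, library size alone, no filter, filterByExpr, the replicate number as a block, leaving out each library, and removing Taf3. The members and gene lists were chosen with earlier results of these data known. Named genes were, besides Taf3, called genes averaging at least 100 counts with non-overlapping groups (the 8 protein-coding and 6 noncoding genes with the largest rise, the 8 most abundant enriched and the 8 with the largest fall), up to 4 called members of a list with its most abundant member, the largest change of each gene type, and those with the largest difference between lines. Some items that these rules name are not reported here. Exons came from a GENCODE annotation of the same build matched by gene ID (55141 genes, 99.5%), and sequence from RefSeq's mm10.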

Additional observations from a re-analysis of the deposited data

Results flagged for a closer look

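The difference between the lines was itself tested (edgeR interaction, NIH3T3 minus Neuro-2a, log2 scale), and the following named genes passed it. Taf3 differed by 2.80, P2rx7 by 1.44, Tor3a by 0.80 and Hs3st1 by 1.83. Among genes scarce in NIH3T3 controls, Cacna1e differed by 4.55, Bfsp2 by 4.05, Rcsd1 by 3.0, Syn3 by 4.49 and Fam135b by 4.25. The lincRNAs Gm47760, Gm20139 and Gm15218 differed by 7.53, 4.20 and 5.40. Gm47760 averaged 0.146 CPM in Neuro-2a controls and 0.0891 CPM with TAF3 there, so its difference (SE 1.55) rests on few Neuro-2a counts.

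Pnliprp2 and A830019P07Rik, the coding gene and the lincRNA with the largest fitted rise, had no NIH3T3 control count. Their differences of 10.02 and 9.15 depend on how a count of 0 is handled. Against 3 counts over the control group their NIH3T3 rises were at least 46.7-fold and at least 66.2-fold. Gm5373, a pseudogene with 1 control count, differed by 7.16, AL831766.1 by 3.72 and Gm2895 by 2.64.

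Of the protein-coding genes with the largest differences among those averaging at least 100 counts in the NIH3T3 libraries, Abcb11, the bile salt export pump, differed by 5.47 and Gsg1 by 4.75, both enriched in NIH3T3. In Neuro-2a control and TAF3 libraries, Abcb11 averaged 0.086 and 0.0283 CPM and Gsg1 0.324 and 0.113 CPM. The differences of Abcb11 and Gsg1 (SE 1.41 and 1.01) thus rest on few Neuro-2a counts. Arhgap29 differed by 5.46 and Stc1 by 4.77, and neither was called in NIH3T3. They had 0.336 ± 0.142 and 0.284 ± 0.0196 CPM in Neuro-2a controls and no count in Neuro-2a TAF3 libraries (SD, n = 3). In the other direction, Tns3 differed by -6.51, Arnt2 by -6.05, Atp8b4 by -5.97 and Col6a3 by -5.87. All 4 were expressed in NIH3T3 and had no count in Neuro-2a controls, so their differences rest on few Neuro-2a counts.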

How the results depend on the processing

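The count of enriched genes (2056) was 2027 with DESeq2, with 1982 genes in common, 1643 with filterByExpr and 1641 to 1909 when 1 library was left out, and 1242 genes were called in all 6 of those fits. The count of depleted genes (72) stayed between 54 and 81. With the replicate number as a block (replicate block) 1810 genes were enriched and 55 depleted, and 419 and 135 differed between the lines. The noncoding share of enriched genes (40.1%) was 37.7% with filterByExpr, 37.3% without pseudogenes and 34% among genes averaging 20 counts or more. With that minimum of 20 counts the median span of enriched genes was 48.2 kb in place of 38.2 kb and the median promoter CpG ratio 0.353 in place of 0.317. Genes with a larger value in Neuro-2a (140) numbered 215 with DESeq2, 241 with no filter and from 85 to 217 over the fits without 1 library, the ends being those without Neuro-2a control replicate 1 and Neuro-2a TAF3 replicate 1. None of the alternatives turned the direction of a called named gene. DESeq2 no longer called CT010467.1, Rpl37, Gm23935 and mt-Rnr2. The cause was not tested. Most enriched genes had few counts, with a median of 22 per library, which limits single values at that level.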

Other observations

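Gm23935, annotated as a miRNA gene, had 7.94, 6.39 and 5.18 CPM in NIH3T3 controls and 119, 10.7 and 8.1 CPM with TAF3, and its log2 fold change of 2.81 became 0.53 without TAF3 replicate 1. In Neuro-2a the ribosomal RNA gene CT010467.1 had 190 ± 9.11 CPM in controls and 961 ± 1230 CPM with TAF3 (SD, n = 3), a spread wider than the difference. The mitochondrially encoded mt-Atp8 had 1.74, 1.47 and 2.23 CPM in NIH3T3 controls and 26, 1.07 and 2.98 CPM with TAF3.

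Of 3733 tested genes named Gm, 622 were enriched (16.7%), and of 1167 with a Rik name, 201 (17.2%), beside 10.7% of all tested genes and 16.9% of all tested genes that are not protein-coding. The highest-changing members of some less common gene types were Mirt1, a processed transcript with 10 control counts and 429 TAF3 counts, 5430437J10Rik, a transcribed pseudogene with a log2 fold change of 3.76, and Ptprv, annotated as a polymorphic pseudogene, with a log2 fold change of 2.84.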
